A study of Mus musculus with 28 samples.

Results

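The interferon-stimulated genes described here are 38 genes that cells switch on when they sense interferon. They were taken from a given list of symbols and matched to Entrez identifiers, and all 38 were found among the 27179 genes of the count tables. Counts were high enough for testing for 35 of them in young mice (not Zbp1, Oas3 and Oasl1) and for 37 in aged mice (not Oas3). They were measured by poly(A) RNA sequencing of the lateral ventricle choroid plexus, the tissue that makes cerebrospinal fluid, in 28 male mice in 7 groups of 4. Young mice (3 months per the labels, 3 to 4 months per the design text) were wild-type C57/BL6. They were sampled at night, 18 h after lights on (ZT18), at day after 6 h of sleep disruption (ZT6), or at day without disruption (ZT6). Aged mice of 12 to 14 months were J20+ at night, J20+ at day, J20- at night or J20- at day, at the same ZT18 and ZT6. J20+ mice have a transgene for mutated human amyloid precursor protein, as in familial Alzheimer's disease, driven by a platelet-derived growth factor B promoter and expressed mainly in neurons, and J20- mice are their wild-type littermates. Mice were perfused with buffered saline before the tissue was taken. Young libraries formed batch 1 and aged libraries batch 2, so age and batch cannot be told apart, and levels are not compared between the ages.

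Type I interferons bind the receptor pair Ifnar1 and Ifnar2, whose kinases Jak1 and Tyk2 act on Stat2. Stat2 enters a complex with Irf9 that binds the interferon-stimulated response element (ISRE) in promoters. Type II interferon acts on another element, the gamma-activated site (GAS). The genes switched on in this way sense foreign nucleic acids, destroy or block viral RNA, tag proteins with Isg15 or shut the response down again, and in choroid plexus and other barriers of the brain the programme is also known from ageing and inflammation.

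Promoter sequences are shown to give the start regions of these genes, some of which hold a response element. RefSeq windows of GRCm38.p6, 250 bases before to 50 bases after a gene's start, were at hand for 28 of the 38 genes. The ISRE was searched as GAAA, any 2 bases and GAAA again, and the GAS as TTCNNNGAA, on both strands, and matches may overlap. An ISRE was present in 15 of the 28 genes (53.6%), against 1079 of 27025 genes with a window (3.99%). A GAS was present in 8 of the 28 (28.6%), against 2582 of 27025 (9.55%). A match describes letters only and is not a bound site.

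Windows are shown whole for 3 of the 5 genes that had a window and the smallest p-values in the comparisons below. Of these 5, Oasl1 and Ifit2 have no ISRE match and are not shown. The double-stranded RNA kinase gene Eif2ak2 and the ubiquitin-like modifier gene Isg15 have the element, and Oasl2, a gene of the oligoadenylate synthetase family, has none of these letters. Capitals mark ISRE matches, and windows read 5' to 3' along the gene.
Eif2ak2 (chr17:78882523-78882822, minus strand): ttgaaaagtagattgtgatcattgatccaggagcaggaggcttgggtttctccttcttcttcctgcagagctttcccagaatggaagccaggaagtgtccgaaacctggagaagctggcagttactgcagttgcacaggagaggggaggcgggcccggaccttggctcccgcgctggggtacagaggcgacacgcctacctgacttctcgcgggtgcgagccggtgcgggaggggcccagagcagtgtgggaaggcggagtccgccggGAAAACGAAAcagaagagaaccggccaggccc
Isg15 (chr4:156200769-156201068, minus strand): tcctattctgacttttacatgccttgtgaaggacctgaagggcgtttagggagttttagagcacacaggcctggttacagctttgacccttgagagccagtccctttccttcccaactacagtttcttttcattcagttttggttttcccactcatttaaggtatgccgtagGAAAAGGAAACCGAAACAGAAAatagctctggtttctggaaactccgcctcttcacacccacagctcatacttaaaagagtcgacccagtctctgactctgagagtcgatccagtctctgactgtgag
Oasl2 (chr5:114896684-114896983, plus strand): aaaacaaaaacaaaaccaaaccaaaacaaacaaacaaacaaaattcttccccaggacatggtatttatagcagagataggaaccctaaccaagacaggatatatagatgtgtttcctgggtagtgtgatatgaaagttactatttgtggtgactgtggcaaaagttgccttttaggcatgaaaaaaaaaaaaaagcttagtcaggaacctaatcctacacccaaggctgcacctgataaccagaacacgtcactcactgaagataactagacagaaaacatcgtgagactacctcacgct

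In Eif2ak2 the match covers bases 269 to 278 of the window, past the start. In Isg15 there are 3 overlapping matches, which run from 78 to 57 bases before the start. For the other 13 genes with a match, the first one is shown with its flanks.
Bst2 (chr8:71537583-71537612, minus strand): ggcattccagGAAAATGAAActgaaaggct
Gbp2 (chr3:142620594-142620623, plus strand): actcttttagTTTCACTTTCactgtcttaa
Gbp3 (chr3:142559989-142560018, plus strand): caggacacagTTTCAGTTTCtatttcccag
Gbp7 (chr3:142530273-142530302, plus strand): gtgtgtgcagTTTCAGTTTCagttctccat
Ifih1 (chr2:62646206-62646233, minus strand): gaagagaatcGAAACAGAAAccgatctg
Ifit1 (chr19:34640775-34640804, plus strand): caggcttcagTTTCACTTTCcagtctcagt
Ifit3 (chr19:34583363-34583392, plus strand): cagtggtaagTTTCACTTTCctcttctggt
Ifit3b (chr19:34607759-34607788, plus strand): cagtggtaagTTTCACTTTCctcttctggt
Ifitm3 (chr7:141010723-141010752, minus strand): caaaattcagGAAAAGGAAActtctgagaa
Oas1a (chr5:120907526-120907555, minus strand): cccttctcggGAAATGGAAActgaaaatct
Oas3 (chr5:120777715-120777744, minus strand): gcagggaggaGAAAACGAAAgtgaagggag
Rsad2 (chr12:26456553-26456582, minus strand): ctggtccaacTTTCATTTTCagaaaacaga
Stat2 (chr10:128270266-128270295, plus strand): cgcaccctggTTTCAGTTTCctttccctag

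A short stretch around this element is the same in Ifit3 and Ifit3b, neighbouring genes on chromosome 19 (34583119 to 34588982 and 34607530 to 34613403) that are close copies of each other. Reads of such pairs, of the Oas1 genes and of the Gbp genes may be shared between copies, so single values of Ifit3, Ifit3b, Oas1a, Gbp2, Gbp3 and Gbp7 are uncertain. The loci of Dtx3l (chromosome 16, 35926515 to 35939027) and Parp9 (35938470 to 35972621) overlap, and as the strand setting of the counting is not given in the sources used here, their shared reads cannot be told apart.

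Total counts per library were 22.5M to 29.0M in young and 14.6M to 43.9M in aged mice. All 12 markers of choroid epithelium were detected in every library, with a mean of 10.5 to 10.8 log2 CPM in young and 9.65 to 11.1 log2 CPM in aged libraries. Markers of neurons, oligodendrocytes and astrocytes (26 genes) varied in aged libraries, with means of 1.23 to 6.97 log2 CPM, and less in young libraries, with 1.46 to 3.30 log2 CPM over 25 genes tested. Dendritic cell markers (6 genes, without Bst2) summed to 7.98 to 15 CPM in aged libraries, and of 14 lymphocyte and neutrophil markers 7 passed the filter in aged and 3 in young mice. In bulk tissue, a change in the share of a cell type and a change in RNA per cell cannot be told apart. Libraries with high neural and low epithelial markers are named below beside some of the results that they touch.

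Interferon genes themselves were almost unread. Of 10 ligand genes (Ifnb1, 4 interferon alpha genes, Ifng, Ifnk, Ifne, Ifnl2 and Ifnl3), none reached the filter, and no library held more than 4 reads of any of them. The 6 receptor genes were all tested in both ages.

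Among the interferon-stimulated genes, levels per exon length spanned a wide range. Ifi27, a mitochondrial membrane protein gene, had the highest level, with a mean of 450.0 CPM per kb in aged and 164 CPM per kb in young libraries. At the low end of the genes tested were Oasl1, a gene of the oligoadenylate synthetase family without enzyme activity, with 0.174 CPM per kb in aged libraries, and the synthetase gene Oas1a with 0.163 CPM per kb in young libraries. Oas1a stood at -2.67, -1.87, -0.92 and -0.99 log2 CPM in young night, -1.93, -1.26, -1.78 and -1.28 in sleep-disrupted and -1.52, -1.15, -1.02 and -1.09 in young day libraries, on 2 to 12 counts. Libraries of a group differed more in these genes than in most. The SD within groups had a median of 0.653 log2 CPM over the 37 genes in aged mice, against 0.381 over all genes tested, and of 0.362 over the 35 genes in young mice, against 0.244. The interferon-stimulated genes are less abundant than the median gene (2.79 against 4.36 log2 CPM in aged, 2.91 against 3.91 in young libraries), and the part of abundance in the spread was not tested. Lgals3bp, with a mean of 7.13 log2 CPM, had the largest SD in aged mice, 1.35.

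**Figure D1:**
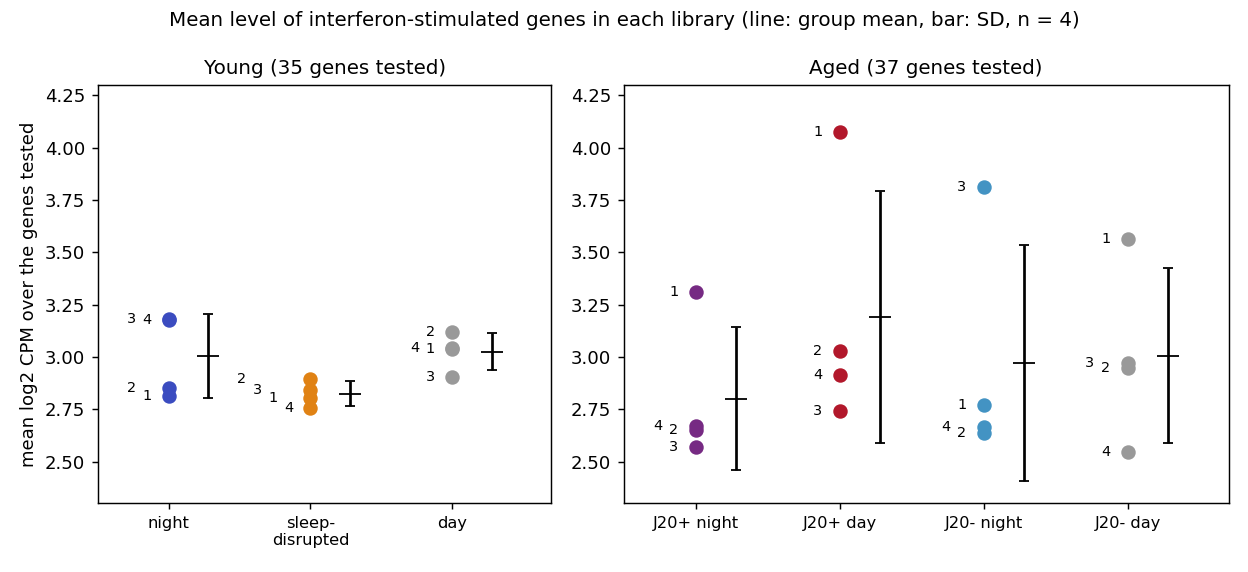
Mean log2 CPM over the interferon-stimulated genes tested (vertical axis), for each young (left, 35 genes) and aged (right, 37 genes) library, by group. Points are libraries with their replicate number, and lines and bars are the group mean and SD (n = 4). Aged groups each have a library above the others, at 3.31 to 4.07, while sleep-disrupted young libraries lie at 2.76 to 2.90, below the day libraries at 2.90 to 3.12.

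Sleep disruption in young mice was set against day without disruption, with both groups taken at ZT6. Most of these genes had slightly lower values after sleep disruption, but none passed the test. The difference was negative for 28 of 35 genes, with a median of -0.227 on the log2 scale, where 49.2% of all 14983 genes were negative and the median of all genes was 0.00. No gene of the table was called (0 of 14983, 0.0%, by edgeR's quasi-likelihood test with Benjamini-Hochberg adjustment), and DESeq2 and limma-voom called none either. At an unadjusted p under 0.05 there was 1 of the 35 genes, against 359 of all genes (2.40%).

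That gene was Oasl2. It stood at 2.09, 1.99, 2.35 and 1.94 log2 CPM in sleep-disrupted libraries, against 3.02, 3.12, 2.53 and 2.52 log2 CPM in day libraries. Every sleep-disrupted library lay below every day library, which held for 1.17% of all genes in this direction. The log2 fold change was -0.73 ± 0.20 (SE), with an adjusted p of 0.861 by edgeR. Leaving out each library in turn gave -0.82 to -0.61.

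Ifit3, whose protein blocks viral RNA together with other IFIT proteins, stood at 2.59, 2.79, 2.90 and 2.48 log2 CPM after sleep disruption, against 2.93, 3.06, 2.87 and 3.20 at day. The groups overlapped in the range of 2.87 to 2.90, and the difference was -0.32 ± 0.15. Usp18, the protease that removes Isg15 and damps the receptor, had 1.96, 1.16, 1.24 and 1.04 log2 CPM in sleep-disrupted libraries, against 1.85, 1.84, 2.18 and 1.73 log2 CPM at day. Sleep-disrupted library 1 reached the day values and the other 3 did not (-0.52 ± 0.27).

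By role, the negative values were spread over the effectors. All 4 IFIT genes were negative, from -0.57 for Ifit1 to -0.25 for Ifit2. So were all 3 OAS genes tested (-0.73 to -0.42), all 5 GTPase genes of the Mx and Gbp families (-0.46 to -0.17) and all 6 genes of Isg15 and ADP-ribose tagging (-0.52 to -0.04). The transcription factor genes Irf1, Irf7, Irf9 and Stat2 lay between -0.17 and 0.04. Among the other effectors 4 of 11 were positive, with Lgals3bp, a secreted galectin-binding protein gene, highest at 0.40 ± 0.28. The mean over all 35 genes was 2.76 to 2.90 log2 CPM in sleep-disrupted and 2.90 to 3.12 log2 CPM in day libraries, and the median difference was -0.29 to -0.19 with each library left out. Summed macrophage markers were 50.6 to 62.4 CPM in sleep-disrupted and 43.6 to 90.7 CPM in day libraries (14 of 15 genes tested, none at 0), and overlapped. Dendritic cell markers (5 of 6 genes tested, none at 0) did not overlap, with means of 0.794 to 0.869 log2 CPM in sleep-disrupted and 0.892 to 1.49 log2 CPM in day libraries. Nor did lymphocyte and neutrophil markers (3 of 14 genes tested), with means of -2.13 to -1.10 log2 CPM in sleep-disrupted and -0.96 to -0.05 log2 CPM in day libraries, and sums of 1.48 to 2.04 CPM in sleep-disrupted and 2.32 to 18 CPM in day libraries. In a library 2 to 5 of the 14 were at 0. The part of these markers in the result was not tested.

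**Figure D2:**
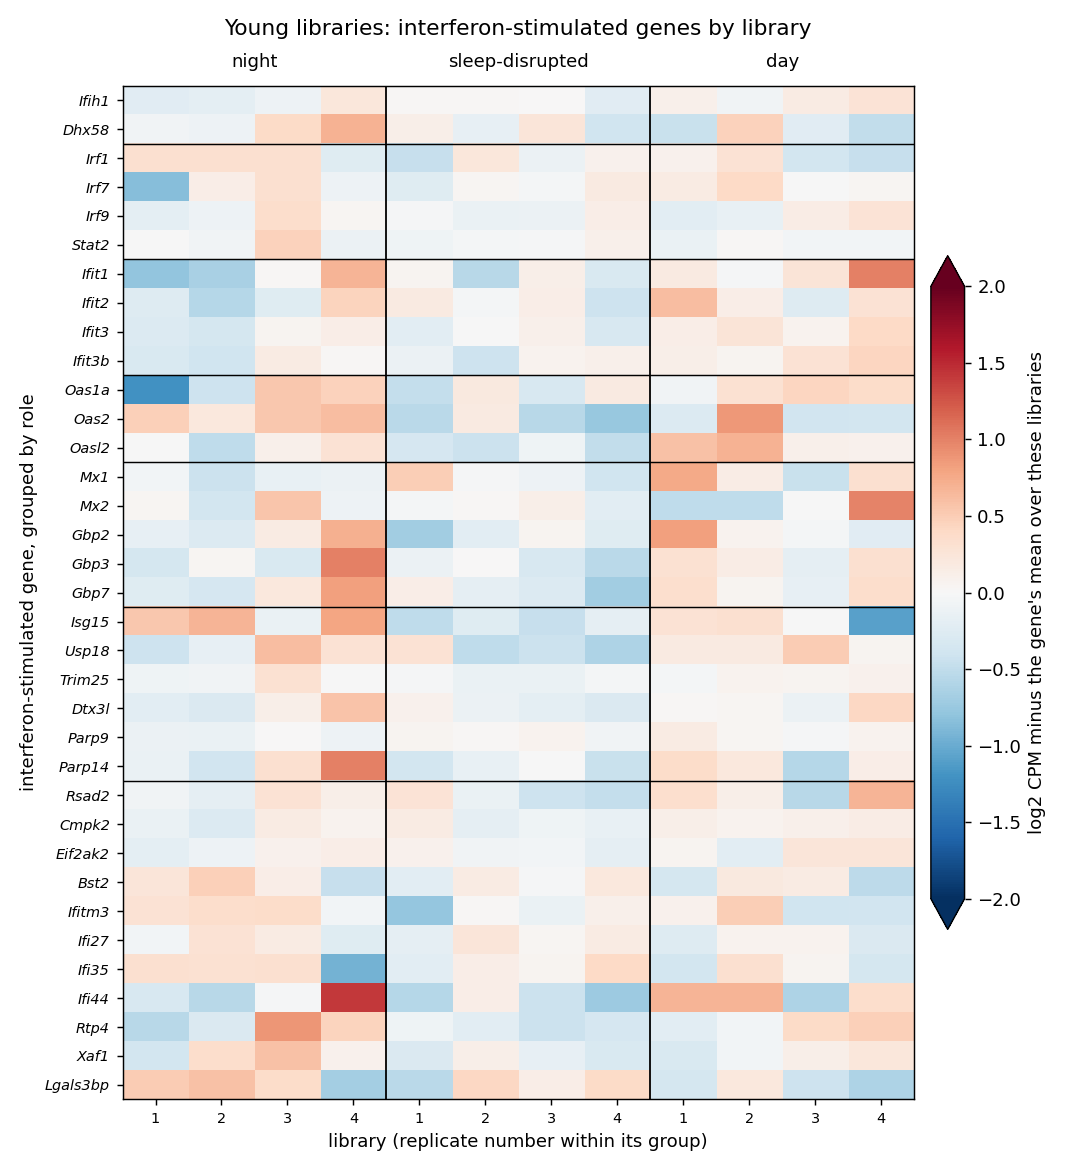
Heat map of the 35 interferon-stimulated genes tested in young mice (rows, grouped by role) in 12 libraries (columns, replicate numbers 1 to 4 within night, sleep-disrupted and day). Colour is log2 CPM minus the gene's mean over these libraries, from -2 (blue) to 2 (red). Sleep-disrupted columns hold more blue than red, mostly pale, and night libraries 3 and 4 are red for many genes, among them Ifi44 in night library 4.

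Young night against young day showed no common direction. The difference was positive for 18 of 35 genes, against 53.9% of all genes, and the median was 0.00, against 0.02 over all genes. None of the 35 was called by edgeR, where 40 of 14983 genes were (0.267%), and none had an unadjusted p under 0.05, against 9.39% of all genes. DESeq2 called none, and limma-voom with quality weights called 4 (1 higher, 3 lower) with 2797 genes of the whole table.

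The IFIT genes lay below day, all 4 between -0.47 and -0.31, and the groups overlapped. Ifit3 had 2.53, 2.44, 2.85 and 2.92 log2 CPM at night, against 2.93, 3.06, 2.87 and 3.20 at day, a difference of -0.31 ± 0.15 (SE, adjusted p = 0.552 by edgeR). Night library 4 alone lay within the range of the day libraries. Parp9, which with the ligase Dtx3l adds ADP-ribose to ubiquitin, was at 4.98, 4.97, 5.11 and 5.0 log2 CPM at night, against 5.27, 5.14, 5.08 and 5.17 at day (-0.14 ± 0.07, adjusted p = 0.571). Oasl2 stood at 2.42, 1.92, 2.54 and 2.73 log2 CPM at night, with the day values given above, and differed by -0.39 ± 0.20 (adjusted p = 0.571).

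Night libraries differed among themselves. Means over the 35 genes were 2.81, 2.85, 3.18 and 3.18 log2 CPM in night libraries 1 to 4. Night library 4 also had the highest macrophage markers, 447 CPM summed, against 66.2 CPM in the lowest night library, and their part in the result was not tested. Without it the median difference of night from day was -0.15, with 13 of 35 genes positive.

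Set against sleep-disrupted mice, young night libraries had slightly higher values. The difference was positive for 27 of 35 genes with a median of 0.13, against 0.01 over all genes, of which 51.9% were positive. None of the 35 was called, where 57 of 14983 genes were (0.38%), and 2 had an unadjusted p under 0.05, against 9.70% of all genes. Macrophage markers also lay higher at night without overlap, with means of 1.60 to 3.55 log2 CPM (66.2 to 447 CPM summed) at night and 1.15 to 1.57 log2 CPM (50.6 to 62.4 CPM) after sleep disruption. So did dendritic cell markers, with 0.999 to 1.30 log2 CPM at night and 0.794 to 0.869 log2 CPM after sleep disruption. Their part in the result was not tested. This comparison shares its sleep-disrupted libraries with the first and its night libraries with the second.

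Isg15 stood at -0.24, -0.10, -0.92 and 0.01 log2 CPM at night, against -1.29, -1.02, -1.25 and -0.96 log2 CPM after sleep disruption. The day values of Isg15 were -0.49, -0.47, -0.80 and -1.87 log2 CPM. Every night library lay above every sleep-disrupted library, and night library 3 cleared them narrowly. The log2 fold change was 0.97 ± 0.34 (SE, adjusted p = 0.348 by edgeR), on 5 to 26 counts per young library.

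Oas2, a synthetase of the messenger that activates RNase L, also separated, at 0.17, -0.10, 0.22 and 0.31 log2 CPM at night, against -0.84, -0.14, -0.86 and -1.06 after sleep disruption (0.92 ± 0.35, adjusted p = 0.376, 11 to 41 counts per young library). Such separation upward held for 3.43% of all genes. Parp14, an ADP-ribosyltransferase gene, overlapped, with 3.45, 3.19, 3.90 and 4.59 log2 CPM at night, against 3.21, 3.43, 3.58 and 3.13 (0.55 ± 0.29).

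In aged mice single libraries stood apart in these genes. In each aged group 1 library was the highest of its 4 in most of the 37 genes: J20+ night library 1 in 26 genes, J20+ day library 1 in 30, J20- night library 3 in 32 and J20- day library 1 in 29. Over all genes tested, those libraries were the highest of their group in 16.2%, 23.2%, 44.7% and 15.5%. Means over the 37 genes were 3.31, 2.65, 2.57 and 2.67 log2 CPM in J20+ night, 4.07, 3.03, 2.74 and 2.91 in J20+ day, 2.77, 2.64, 3.81 and 2.67 in J20- night, and 3.56, 2.95, 2.97 and 2.55 in J20- day libraries 1 to 4.

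J20+ day library 1 and J20- night library 3 had the highest means. J20+ day library 1 exceeded the other 3 J20+ day libraries by a median of 1.20 on the log2 scale over the 37 genes, where the median over all genes was -0.27. It was the highest of all 16 aged libraries for 17 of them, a count for which the share over all genes was not computed. Oasl2 was 8.19-fold, Ifi44 6.87-fold, Oas1a 6.69-fold, Ifit1 6.28-fold, Ifit3 6.14-fold, Gbp2 4.87-fold, Isg15 4.58-fold, Usp18 4.08-fold and Rtp4 3.23-fold above the mean log2 level of the other 3. Eif2ak2, Trim25, Parp9, Ifih1 and Lgals3bp were below that mean in the same library, from -0.60 to -0.13, and Bst2 and Ifi27 were at -0.03 and -0.02.

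J20- night library 3 exceeded the other 3 J20- night libraries by a median of 0.97, where the median over all genes was 0.14, and was the highest of the 16 aged libraries for 12 genes. For that count too the share over all genes was not computed. Usp18 was 10.1-fold, Rtp4, a receptor transporter protein gene, 9.20-fold, Ifit1 6.89-fold, Oas1a 5.83-fold and Isg15 2.95-fold above the others, and Irf7, the factor that amplifies interferon output, 3.32-fold. Gbp2 (1.01-fold), Ifit2 (0.649-fold) and Oas2 (0.742-fold) were not high there. Total counts were 23.2M in J20+ day library 1 and 18.4M in J20- night library 3, within the range of the other aged libraries.

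Markers of other cells differed between these libraries. In J20+ day library 1 the mean of the 26 neural markers was 5.89 log2 CPM, against 1.57 to 4.33 in the other J20+ day libraries, and epithelial markers were at 10.1, against 10.9 to 11.1. The macrophage mean (15 genes) was 3.15, against 2.23 to 2.72. In J20- night library 3 the neural mean was 4.34, below 6.21 to 6.97 in the other J20- night libraries, the epithelial mean 10.4, above 9.68 to 10.0, and the macrophage mean 2.26, below 2.34 to 2.69. Their part in the result was not tested.

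**Figure D3:**
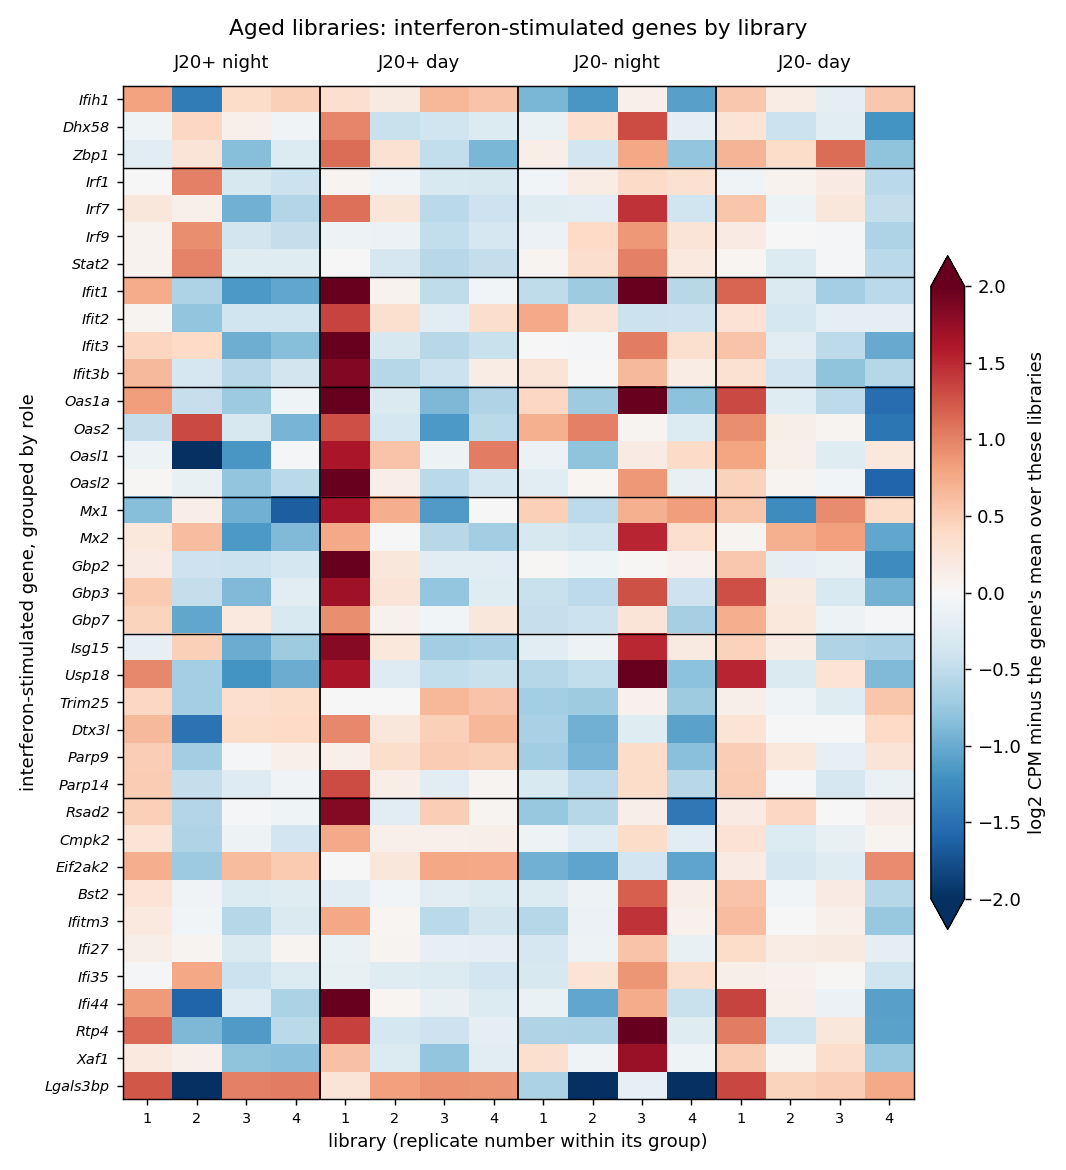
Heat map of the 37 interferon-stimulated genes tested in aged mice (rows, grouped by role) in 16 libraries (columns, replicate numbers 1 to 4 within J20+ night, J20+ day, J20- night and J20- day). Colour is log2 CPM minus the gene's mean over these libraries, with values past -2 or 2 shown at the end of the scale. J20+ day library 1 and J20- night library 3 are red for most genes, and Ifih1, Trim25, Dtx3l, Eif2ak2 and Lgals3bp are blue in J20+ night library 2 and in J20- night libraries 1, 2 and 4.

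J20+ was set against J20- at day to ask about genotype in the light phase. Values were higher in J20+ for 27 of 37 genes, with a median of 0.23 on the log2 scale, against 0.03 over all genes, of which 54.6% were positive. None of the 37 and none of 16065 genes was called by edgeR (0.0%), and 1 of the 37 had an unadjusted p under 0.05, against 1.87% of all genes. With the neural mean as a covariate the median was 0.20, with 24 of 37 positive. Without J20+ day library 1 it was -0.27 and 11 of 37 were positive, so the direction turned with that library. With limma-voom, which gives outlying libraries less weight, the median was -0.41 and 4 genes passed (2 higher, 2 lower, of 2369 genes in all).

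Gbp2, a GTPase that attacks membranes around pathogens, had 4.52, 2.52, 2.09 and 2.08 log2 CPM in J20+ day, against 2.82, 2.12, 2.16 and 1.03 log2 CPM in J20- day libraries (1.14 ± 0.52, adjusted p = 0.989 by edgeR). Oasl2 had 4.93, 2.28, 1.62 and 1.80 in J20+ day, against 2.62, 2.20, 2.10 and 0.58 in J20- day (1.46 ± 0.68). Ifit3b had 3.67, 1.25, 1.39 and 1.98 in J20+ day, against 2.12, 1.44, 1.01 and 1.25 in J20- day (1.01 ± 0.51). In each of these genes J20+ day library 1 was far above all others, and the remaining J20+ day libraries lay within or near the J20- range. Without that library the differences were 0.05 for Gbp2, -0.15 for Oasl2 and 0.03 for Ifit3b.

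J20+ night was then set against J20+ day. Values at night were lower for 31 of 37 genes, with a median of -0.47, against 0.02 over all genes, of which 47.4% were negative. None of the 37 was called by edgeR, where 7 of 16065 genes were (0.0436%), and none by DESeq2 or limma-voom. At an unadjusted p under 0.05 there were 6 of 37 genes, against 7.41% of all genes. With the neural mean as a covariate the median was -0.38, with 8 of 37 positive. Without J20+ day library 1, 19 of 37 were positive and the median was 0.03.

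The lowest p belonged to Oasl1, which stood at -1.21, -3.41, -2.27 and -1.13 log2 CPM at night, against 0.54, -0.53, -1.20 and -0.07 at day (-1.94 ± 0.66, adjusted p = 0.652 by edgeR), on 0 to 39 counts per aged library. Night library 4 lay above day library 3, and night library 1 lay just below it. Ifit2, which binds viral RNA and favours cell death, stood at 2.47, 1.63, 2.02 and 2.03 at night, against 3.77, 2.75, 2.21 and 2.78 at day (-0.99 ± 0.37), and night library 1 overlapped day library 3. Oasl2 had 2.18, 2.00, 1.37 and 1.62 at night, with the day values given above (-1.69 ± 0.69). Leaving out J20+ day library 1 moved these differences to -1.46 for Oasl1, -0.53 for Ifit2 and -0.09 for Oasl2.

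J20- night against J20- day gave values of both signs. Transcription factor and IFIT genes had higher values at night, all 4 of each, from 0.33 to 0.70 and from 0.32 to 0.68. Of the 6 genes of Isg15 and ADP-ribose tagging, 4 were lower at night, with Dtx3l at -0.82 ± 0.35, Parp9 at -0.58 ± 0.27 and Trim25 at -0.52 ± 0.25, while Isg15 was at 0.69 ± 0.61 and Usp18 at 0.67 ± 0.86. J20- night library 3 was the highest of its group in Isg15, Usp18, all 4 transcription factor genes and the IFIT genes except Ifit2. Usp18 had 4.36 log2 CPM there, against 0.84 to 1.16 in the other J20- night libraries. Isg15 had 2.85 against 1.12 to 1.52, and Ifit1 4.36 against 1.46 to 1.67. Of the sensors, Ifih1 was at -0.91 ± 0.37 and Dhx58, a helicase that tunes RNA sensing, at 0.85 ± 0.44. The difference was positive for 23 of 37 genes, against 52.1% of all genes, with a median of 0.32, against 0.03. None of the 37 was called by edgeR, where 2 of 16065 genes were (0.0124%). At an unadjusted p under 0.05 there were 6 of 37, a smaller share than the 31.1% of all genes.

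Eif2ak2, which stops translation when it binds double-stranded RNA, had 4.73, 4.64, 5.31 and 4.64 log2 CPM in J20- night, against 5.86, 5.36, 5.45 and 6.63 log2 CPM in J20- day libraries. Every night library lay below every day library, and the difference was -1.0 ± 0.32 (SE, adjusted p = 0.144 by edgeR). Lgals3bp was also separate, at 6.49, 4.77, 6.96 and 4.82 at night, against 8.46, 7.57, 7.62 and 7.88 at day (-1.79 ± 0.70, adjusted p = 0.144). Dtx3l separated as well, with 2.14, 1.83, 2.54 and 1.72 at night, against 3.06, 2.79, 2.79 and 3.18 at day. Separation downward held for 18% of all genes.

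Stat2, the partner of Irf9, was the gene that separated upward. It had 5.13, 5.44, 6.09 and 5.28 log2 CPM in J20- night, against 5.13, 4.81, 5.04 and 4.55 log2 CPM in J20- day libraries. Night library 1 and day library 1 nearly met, and the difference was 0.70 ± 0.28 (adjusted p = 0.144). Separation upward held for 7.31% of all genes.

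The groups also differed in cell markers. Summed epithelial markers were 21858 to 35396 CPM in J20- night and 42158 to 51407 CPM in J20- day libraries, and summed neural markers 1263 to 7422 CPM in J20- night and 355 to 3359 CPM in J20- day libraries, none of the 26 at 0 at night and at most 1 at day. With the neural mean as a covariate the median of the 37 genes was -0.19, with 14 of 37 positive, and without J20- night library 3 it was -0.36. Counts of calls also moved with the fit: 1 with DESeq2 (1390 genes in all), 9 with limma-voom (8312) and 5 with only these groups (4033 of 15385).

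At night, J20+ was set against J20-, a comparison that shares the J20- night libraries with the one above. Values were higher in J20+ for 9 of 37 genes, with a median of -0.41, against -0.01 over all genes, of which 49.5% were positive. None of the 37 was called by edgeR, where 1 of 16065 genes was (0.00622%), and 6 of 37 had an unadjusted p under 0.05, against 31.9% of all genes.

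Among the genes with higher values in J20+ were Eif2ak2, Lgals3bp and Ifih1. Eif2ak2 had 6.41, 4.97, 6.32 and 6.22 log2 CPM in J20+ night libraries, with the J20- night values given above, a difference of 1.14 ± 0.32 (SE, adjusted p = 0.0917 by edgeR). Library 2 was the J20+ night library that fell among the J20- night values. Lgals3bp had 8.37, 3.44, 8.13 and 8.14 in J20+ night libraries (1.67 ± 0.70, adjusted p = 0.125), and again library 2 was the low one.

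Ifih1, the sensor MDA5 of long double-stranded RNA, had 5.73, 3.53, 5.30 and 5.41 log2 CPM in J20+ night, against 4.01, 3.76, 5.03 and 3.85 log2 CPM in J20- night libraries (0.86 ± 0.36, adjusted p = 0.127). Here library 2 of J20+ was the lowest of all 8 night libraries. All 4 transcription factor genes (-0.67 to -0.10), all 4 IFIT genes (-1.07 to -0.45) and all 4 OAS genes tested (-0.91 to -0.41) had lower values in J20+. In several of them J20- night library 3 lay above the other J20- night libraries. It had 4.36 log2 CPM in Ifit1, against 1.46 to 1.67, and 2.04 in Oas1a, against -0.95 to 0.28. It was also the highest of its group in Ifit3, Ifit3b and Oasl2, but not in Ifit2, Oas2 or Oasl1.

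J20+ night library 2 had a neural mean of 5.12 log2 CPM and an epithelial mean of 9.65, against 1.36 to 3.54 and 11 to 11.1 in the other J20+ night libraries. Total counts were 26.9M, 15.5M, 30.9M and 28.8M in J20+ night libraries 1 to 4. In J20- night libraries 1 to 4 they were 14.9M, 14.6M, 18.4M and 17.2M. The part of depth in the result was not tested. With the neural mean as a covariate the median of the 37 genes was 0.0026, with 19 of 37 positive, so the direction was lost. Without J20+ night library 2, 10 of the 37 were called by edgeR (5 higher, 5 lower), a smaller share than the 57.7% of all genes called in that fit. Without J20- night library 3 the median was 0.02, with 20 of 37 positive. DESeq2 called 1 of the 37 (3001 genes in all) and limma-voom 17 (7 higher, 10 lower; 11588 genes).

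**Figure D4:**
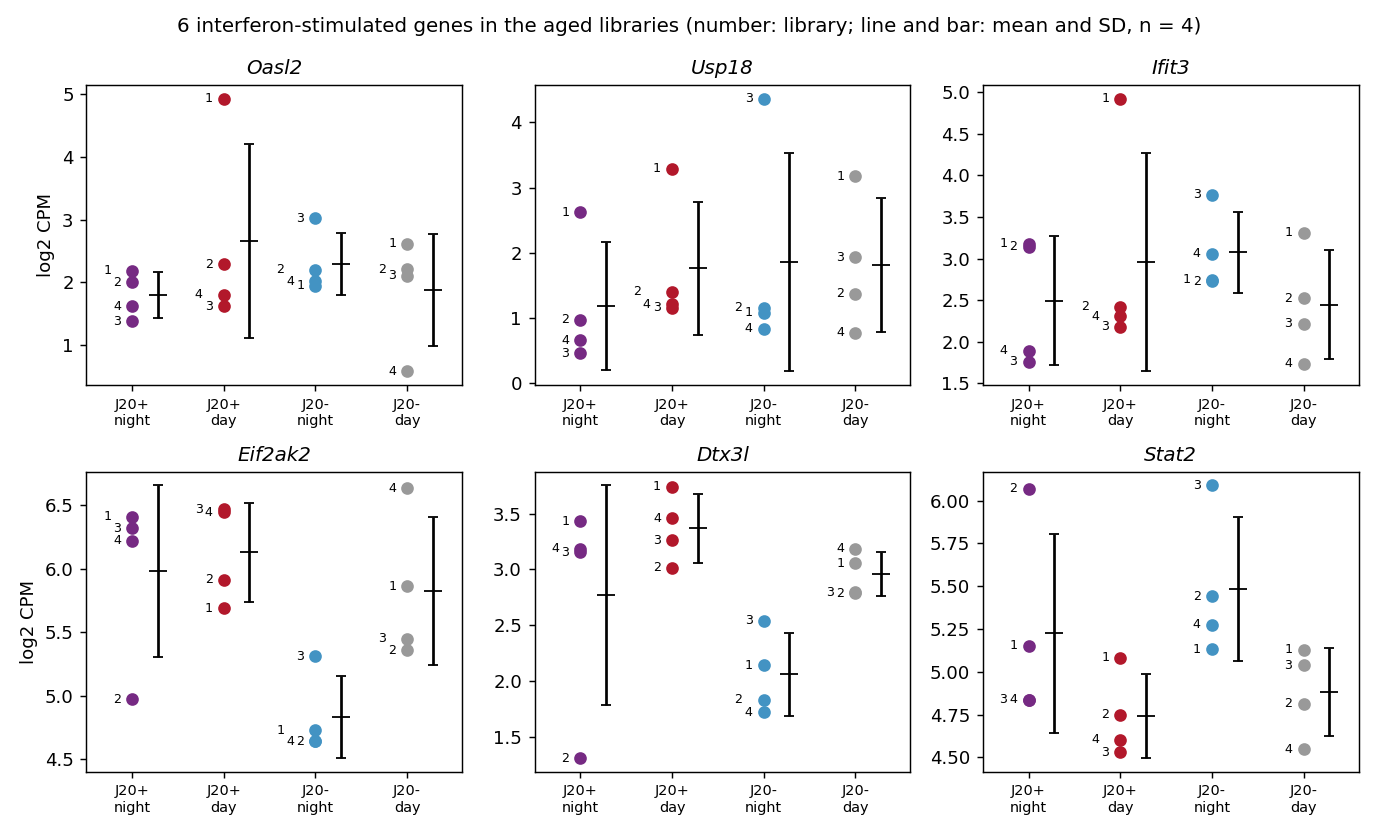
Log2 CPM (vertical axes, each with its own range) of 6 interferon-stimulated genes in the 16 aged libraries by group. Points are libraries with their replicate number, and lines and bars are mean and SD (n = 4). In Oasl2, Usp18 and Ifit3 single libraries (J20+ day 1, J20- night 3) lie above the rest, while Eif2ak2 and Dtx3l are low in J20- night libraries and in J20+ night library 2, where Stat2 is high.

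Over both times, J20+ against J20- gave a median of -0.05, with 17 of 37 genes positive (0.09 and 25 of 37 with the neural mean as a covariate), and over all genes a median of 0.01 with 50.7% positive. None of the 37 and none of 16065 genes was called by edgeR (0.0%), and 3 of 37 had an unadjusted p under 0.05, against 20% of all genes. They were Eif2ak2 (0.69 ± 0.23, adjusted p = 0.233), Dtx3l (0.63 ± 0.25) and Trim25, a ubiquitin ligase that activates RNA sensing (0.39 ± 0.18, adjusted p = 0.249).

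Dtx3l had 3.43, 1.31, 3.16 and 3.19 log2 CPM in J20+ night and 3.74, 3.01, 3.26 and 3.46 in J20+ day libraries, with the J20- values given above. Trim25 had 6.02, 4.92, 5.95 and 5.97 log2 CPM in J20+ night and 5.61, 5.59, 6.28 and 6.17 in J20+ day libraries, against 4.93, 4.90, 5.68 and 4.89 in J20- night and 5.72, 5.54, 5.36 and 6.16 in J20- day libraries. In both genes J20- night libraries 1, 2 and 4 and J20+ night library 2 were low, and the day groups overlapped. The libraries that were low had the lowest epithelial means of all aged libraries. Neural means were high in them and in J20+ day library 1. The part of these markers in the result was not tested. Without J20+ night library 2, 8 of the 37 were called (5 higher, 3 lower), beside 42.4% of all genes.

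The test of whether genotype changed the difference between night and day (the interaction) was negative for 30 of 37 genes, with a median of -0.55, against 0.06 over all genes, of which 44.6% were negative. None of the 37 and none of 16065 genes was called (0.0%), by edgeR or, for the 37, by DESeq2, and 2 of 37 had an unadjusted p under 0.05, against 12.4% of all genes. Ifit2 gave -1.31 ± 0.53 (adjusted p = 0.363 by edgeR), Oasl2 -2.08 ± 0.96 and Ifit3b -1.46 ± 0.72. For Ifit2 the values not yet given were 3.18, 2.68, 2.00 and 2.02 log2 CPM in J20- night and 2.71, 2.07, 2.24 and 2.22 log2 CPM in J20- day libraries. Oasl2 had 1.95, 2.20, 3.02 and 2.02 log2 CPM in J20- night libraries. Ifit3b had 2.47, 1.49, 1.26 and 1.46 log2 CPM in J20+ night and 2.09, 1.83, 2.47 and 1.96 log2 CPM in J20- night libraries. J20+ day library 1 was the highest aged library in each of these 3 genes. With the neural mean as a covariate the median was -0.18, with 16 of 37 positive. It was -0.03 without J20+ day library 1, 0.00 without J20- night library 3, and 0.41 without both, with 30 of 37 positive.

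Ifi27, with the highest counts of these genes, varied least between aged groups. It had 9.46, 9.39, 9.06 and 9.41 log2 CPM in J20+ night, 9.22, 9.40, 9.18 and 9.14 in J20+ day, 9.01, 9.24, 9.92 and 9.20 in J20- night and 9.72, 9.50, 9.53 and 9.16 in J20- day libraries. Its differences ran from -0.24 to 0.08 over the 4 pairs of groups. Its young values were 7.84, 8.19, 8.06 and 7.65 at night, 7.73, 8.14, 7.94 and 8.06 after sleep disruption and 7.65, 7.97, 7.96 and 7.62 at day.

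**Figure D5:**
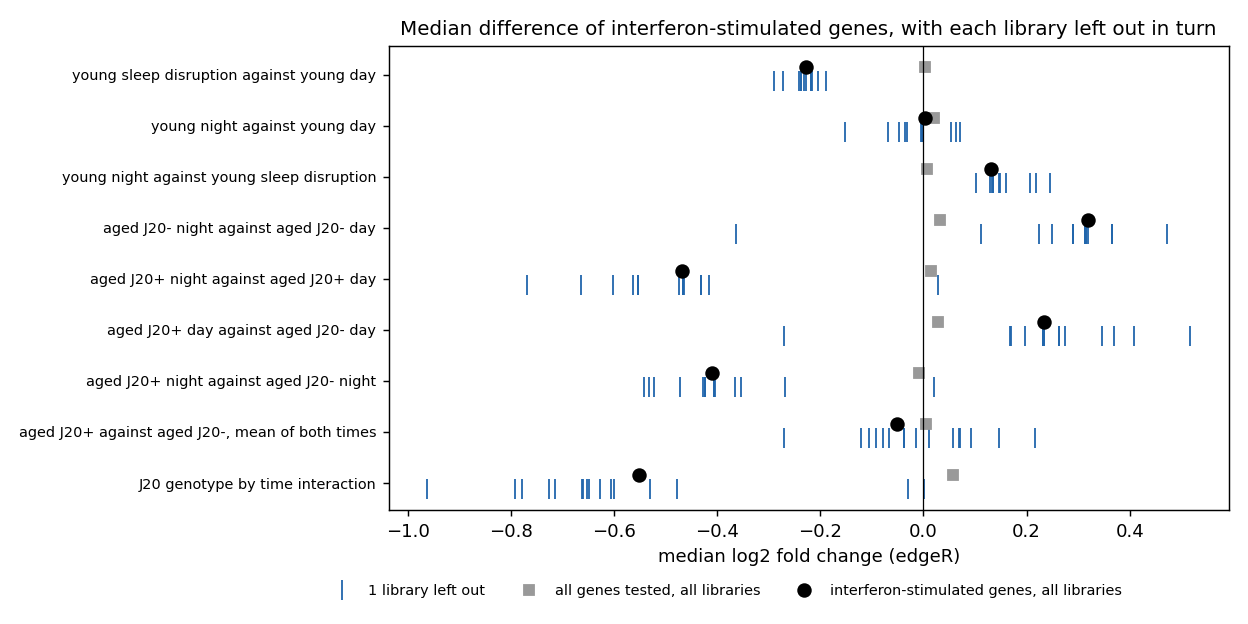
Median log2 fold change (horizontal axis) of the interferon-stimulated genes tested in each of 9 comparisons (rows): black circles with all libraries, blue bars with each library left out in turn, and grey squares the median of all genes. The aged medians at -0.47, 0.23, 0.32, -0.41 and -0.55 each move to near 0 or past it without a single library, and the young median after sleep disruption stays between -0.29 and -0.19.

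Further genes of the interferon pathway were listed by role, 72 in all, of which 57 were tested in young and 62 in aged mice. None was called by edgeR in any of the 9 comparisons. After sleep disruption 44 of 57 were negative against day, where 49.2% of all genes were, with a median of -0.15. At an unadjusted p under 0.05 was B2m, the light chain of MHC class I, which had 7.59, 7.45, 7.45 and 7.33 log2 CPM after sleep disruption, against 7.81, 7.77, 7.64 and 7.96 log2 CPM at day (-0.34 ± 0.15, adjusted p = 0.861). Every sleep-disrupted library lay below every day library in B2m, and such separation downward held for 1.17% of all genes. The next were Sp100 (-0.62 ± 0.28), a nuclear body gene, and the GTPase gene Irgm2 (-0.36 ± 0.17).

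At young night, 47 of 57 were positive against sleep disruption (median 0.16), where 51.9% of all genes were, with 12 of 57 at an unadjusted p under 0.05, against 9.70% of all genes. Ifitm1, a gene that hinders viral entry, had 1.86, 1.60, 1.81 and 1.86 log2 CPM at night, against 0.71, 1.14, 1.24 and 1.07 after sleep disruption (0.76 ± 0.21, adjusted p = 0.20). Socs3, an inhibitor of cytokine signalling, was also separate (0.87 ± 0.30), where separation upward held for 3.43% of all genes. Tor3a lay at 0.26 ± 0.09. Against day, 33 of 57 were positive at night (median 0.04), where 53.9% of all genes were, led by the phosphatase gene Ptpn6 (0.76 ± 0.25), Tor3a (0.22 ± 0.09) and the kinase gene Ikbke (0.42 ± 0.18).

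In aged mice Mavs, the adaptor through which Ifih1 signals, had 6.28, 5.75, 6.57 and 6.54 log2 CPM in J20+ night and 5.85, 6.33, 6.59 and 6.60 in J20+ day libraries, against 5.49, 5.25, 5.49 and 5.01 in J20- night and 6.12, 6.10, 6.08 and 6.55 in J20- day libraries. The J20- night libraries lay below the J20- day libraries, and separation in this direction held for 18% of all genes. Epithelial means were 9.68 to 10.4 log2 CPM in J20- night, 10.7 to 11.1 in J20- day and 9.65 to 11.05 in J20+ night libraries. Neural means were 4.34 to 6.97, 1.23 to 5.23 and 1.36 to 5.12 log2 CPM in the same order. The part of these markers in the result was not tested. The log2 fold change was 0.91 ± 0.20 for J20+ against J20- at night (adjusted p = 0.0917 by edgeR) and -0.83 ± 0.19 for J20- night against J20- day (adjusted p = 0.144), in which the J20- night libraries are shared. The next were Trim21, a cytosolic antibody receptor gene (0.50 ± 0.13), and Herc6, a ligase of Isg15 in mice (0.79 ± 0.23), in the genotype comparison at night, and the RNA sensor gene Tlr3 (-0.71 ± 0.25) and Herc6 (-0.61 ± 0.23) in the comparison of J20- night with day. In each of these 2 comparisons 12 of 62 had an unadjusted p under 0.05, a smaller share than the 31.9% and 31.1% of all genes.

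Cxcl10, a chemokine that draws T cells, had 0.09, -0.60, -2.27 and -1.58 log2 CPM in J20+ night, against 1.97, 0.74, -1.20 and 1.30 log2 CPM in J20+ day libraries (-2.16 ± 0.78, adjusted p = 0.652). Night libraries 1 and 2 overlapped day library 3. Samhd1, which depletes nucleotides (-0.42 ± 0.17), and the GTPase gene Gbp9 (-1.24 ± 0.54) followed, and of 62 genes 37 were negative (median -0.06), where 47.4% of all genes were. For J20+ against J20- at day 39 of 62 were positive (median 0.09), where 54.6% of all genes were, with Gbp9 at 1.15 ± 0.55, Cxcl10 at 1.34 ± 0.76 and Samhd1 at 0.30 ± 0.17. Over both times it was 38 of 62 (median 0.05), against 50.7% of all genes, with Mavs at 0.53 ± 0.14, Stat3 at 0.39 ± 0.11 and Herc6 at 0.44 ± 0.16. In the interaction 32 of 62 were negative (median -0.02), against 44.6% of all genes, with Trim21 at 0.54 ± 0.19, Mavs at 0.77 ± 0.27 and Herc6 at 0.72 ± 0.32. The part of J20+ day library 1 in the values of these pathway genes was not tested. Without that library the median of the 37 interferon-stimulated genes was -0.27 for J20+ against J20- at day. It was 0.03 for J20+ night against J20+ day.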

How the data were processed

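Per the labels, poly(A) RNA was sequenced with a stranded library kit. Raw counts per gene were deposited by the authors as separate tables for young and aged mice. The submitters' processing notes list the mm10 genome, HISAT2 (version 2.2.1), featureCounts (version 2.0.1), cutadapt, Picard (version 2.18.2), DESeq2 and FastQC (version 0.11.8), with no order. Not given in the sources used here are the annotation, the strand setting and the handling of multiply mapped reads.

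Entrez identifiers were matched to RefSeq symbols of GRCm38.p6 (25275 of 27179, 93.0%). Young (12) and aged (16) libraries were fitted apart with edgeR 4.0.16 in R 4.3.3 (TMM scaling, filterByExpr by group, robust quasi-likelihood test), with Benjamini-Hochberg adjustment over all genes tested and a threshold of 0.05. Log2 CPM used a prior count of 2, and SE is the log2 fold change over the square root of F. The fit was tested on counts simulated from a single pooled profile with known changes. That simulation had no outlying libraries and no differences in cell markers, so it does not cover these features. Alternatives were RLE scaling, no filter, a filter of 10 CPM in 4 libraries, DESeq2 1.42.0, limma-voom with quality weights (limma 3.58.1), the neural marker mean as a covariate, the compared groups alone, and each library left out.

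The interferon-stimulated genes and the other lists were chosen with earlier results of these data known. Values per library are given for the 3 genes with the smallest p in each comparison, in the groups compared, and for those with the highest and the lowest mean CPM. Not given are the values of Oasl1 in J20- libraries and of Eif2ak2 in J20+ day libraries. Of other pathway genes, the 3 with the smallest p are named. Bst2 was kept out of the dendritic cell markers. Replicate numbers follow the order of deposition. Nothing in the labels beyond separate mice describes litters or days.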

Additional observations from a re-analysis of the deposited data

Results flagged for a closer look

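In 17 of 137 groups of 4 libraries examined, the highest or the lowest library lay apart from the others. Its gap took more of the group's range than Dixon's 95% critical value allows. By chance this occurs in about 1 in 20 independent groups. The 137 groups share libraries and most of their genes were picked for small p here, so that rate is no reference for the 17. Aged libraries gave most of the 17. The mean over the interferon-stimulated genes was separated upward in J20+ night library 1 (3.31 log2 CPM) and in J20- night library 3 (3.81 log2 CPM). J20+ day library 1 was high in Ifit3 (4.92 log2 CPM) and Usp18 (3.29 log2 CPM) and low in Lgals3bp (7.39 log2 CPM). J20- night library 3 was high in Usp18 (4.36 log2 CPM), Eif2ak2 (5.31 log2 CPM) and Trim25 (5.68 log2 CPM). J20+ night library 1 was high in Gbp2 (2.45 log2 CPM), and J20+ night library 3 was low in Ifi27 (9.06 log2 CPM).

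J20+ night library 2 was low in Dtx3l (1.31 log2 CPM), Eif2ak2 (4.97 log2 CPM), Lgals3bp (3.44 log2 CPM) and Trim25 (4.92 log2 CPM). Among young libraries, sleep-disrupted library 4 was low in Ifih1 (5.91 log2 CPM), night library 4 was low in Lgals3bp (3.41 log2 CPM) and day library 2 was high in Oas2 (0.56 log2 CPM).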

How the results depend on the processing

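No paired analysis was possible because the labels give every library its own mouse and link no mice between groups. After sleep disruption and for young night against sleep disruption, no alternative called any of the interferon-stimulated genes, and the sign of the median held in all. For young night against young day, limma-voom called 4 genes, beside 18.7% of all genes, with a median of -0.13. There, leaving out 1 library gave medians of -0.15 to 0.071. For J20+ night against J20+ day the median was -0.77 to 0.029 with 1 library left out.

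For J20- night against J20- day, DESeq2 called 1, limma-voom 9 and the compared groups alone 5, beside 8.65%, 51.7% and 26.2% of all genes. With 1 library left out 0 to 6 were called, with 33.4% of all genes in the fit that called 6. The median of this comparison was -0.25 with limma-voom, -0.19 with the neural covariate and -0.36 to 0.47 with 1 library left out. For J20+ day against J20- day limma-voom called 4 (beside 14.7% of all genes), with a median of -0.41, and leaving out 1 library gave -0.27 to 0.52. There Gbp2 (-0.21), Oasl2 (-0.45) and Ifit3b (-0.081) turned negative with limma-voom, and Oasl2 was -0.15 to 1.81 with 1 library left out. For J20+ night against J20- night DESeq2 called 1 and limma-voom 17, beside 18.7% and 72.1% of all genes. With 1 library left out 0 to 10 were called, with 57.7% of all genes in the fit that called 10. Over both times limma-voom called 22, beside 71.3% of all genes. With 1 library left out 0 to 8 were called, with 42.4% of all genes in the fit that called 8. Eif2ak2 alone was called without J20- day library 4, beside 3.51% of all genes. In the interaction limma-voom called 4, beside 33.5% of all genes, with a median of 0.18. Leaving out 1 library gave 0 to 2 calls and medians of -0.96 to 0.00049. In the fit with 2 calls, 20.9% of all genes were called.

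Leaving out 2 libraries was chosen after seeing the data. Without J20+ day library 1 and J20- night library 3, 4 genes were called for J20- night against J20- day (median -0.36). For J20+ night against J20- night 4 were called as well. Over all genes, 9.97% and 18.5% were called in these comparisons. The median was then 0.029 for J20+ night against J20+ day, -0.27 for J20+ day against J20- day, where Oasl2 was -0.15, and 0.41 in the interaction. Without J20+ day library 1 and J20+ night library 2, 6 were called for J20- night against J20- day, 12 for J20+ night against J20- night and 12 over both times. Over all genes, 44.4%, 62.9% and 56.6% were called in the same order. The medians were then 0.062 for J20+ night against J20+ day and -0.27 for J20+ day against J20- day, where Oasl2 was -0.15. With the neural covariate the median was 0.0026 for J20+ night against J20- night and -0.18 in the interaction. The cause of these changes was not tested.

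Calls over all genes moved with the fit too. Over all alternatives they ranged from 13 to 2797 for young night against young day, 16 to 1105 for young night against sleep disruption, 2 to 8312 for J20- night against J20- day, 1 to 274 for J20+ night against J20+ day, 0 to 2369 for J20+ day against J20- day, 0 to 11588 for J20+ night against J20- night, 0 to 11455 over both times and 0 to 5382 in the interaction. Depth limits Oasl1, Oas1a, Oas2 and Isg15, whose low counts make single values imprecise.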
